A study of Saccharomyces cerevisiae with 9 samples.

Results

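Lipoate is a sulfur-containing cofactor that is held on a lysine of a few mitochondrial proteins and carries reaction intermediates between the active sites of large enzyme complexes. The genes described are the 10 yeast genes KGD1, KGD2, LPD1, LAT1, PDA1, PDB1, PDX1, GCV3, LIP2 and LIP5, which encode ketoglutarate dehydrogenase, pyruvate dehydrogenase, the lipoate carrier of glycine cleavage and enzymes that put lipoate in place. They are a list of names, drawn up with earlier results of these data known, out of 5656 genes that the array platform names with a single gene per probe set. Each had 1 probe set, none with a suffix that marks shared sequence, and all 10 were bright enough to be among the 4537 genes tested. No value of any of the 10 fell under the floor of 43.2 applied to dim signals.

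The RNA came from Saccharomyces cerevisiae cells without working chromosomal copies of CTH1 and CTH2. The CTH2 group carried CTH2 on the plasmid pRS416, the CTH1 group carried CTH1 on that plasmid, and the vector group carried pRS416 with no insert. Each group had 3 cultures and 3 Affymetrix Yeast Genome S98 arrays, 9 arrays in all. All cultures had been kept for about 6 hours at 30 °C in uracil-free synthetic medium with 100 µM bathophenanthroline disulfonate (BPS), an iron chelator, so every value below is from iron-limited cells and none is from iron-replete cells. The strain background and the promoters on the plasmids are not given in the sources used here, and nothing in the labels says that the 3 cultures of a group came from separate transformants, so p-values measure the spread between these cultures. An array averages a whole culture, in which fewer cells with an mRNA and less of it per cell cannot be told apart.

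Cth1 and Cth2 are zinc-finger proteins that bind AU-rich stretches in the 3′ untranslated region of mRNAs and bring about their decay when iron is scarce. Lipoate ties into iron because lipoyl synthase, the product of LIP5, is an iron-sulfur enzyme: it inserts sulfur into an octanoyl chain made by mitochondrial fatty acid synthesis. LIP2 encodes the transferase that places the chain on the carrier protein Gcv3, and from there lipoate reaches the acyltransferase subunits of pyruvate and ketoglutarate dehydrogenase.

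The plasmid genes followed their labels. CTH2, listed in the annotation as TIS11, had signals of 3801, 3389 and 4498 in the CTH2 arrays and at most 10.2 in the CTH1 and vector arrays. CTH1 had signals of 231, 592 and 288 in the CTH1 arrays and at most 14.3 in the CTH2 and vector arrays. Array medians were 153 to 184, pairwise correlations over the tested genes ran from 0.901 to 0.983, and no pair of arrays was close to a duplicate. Signals of different probe sets are not on a common scale, so each gene is compared only with itself across arrays.

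Of the 10 genes, KGD1 and LIP5 had lower signals in the CTH2 arrays than in the vector arrays, with no overlap between the arrays, while the other 8 genes overlapped. Arrays of these groups did not overlap for 16.5% of all tested genes, and for 6.99% with CTH2 lower. KGD1 stood at 49.5% of its vector level (95% interval 37.1% to 66.1%) and LIP5 at 56.2% (39% to 81.1%). None of the 10 passed the test over all genes, at an adjusted p of 0.05, in any comparison of the groups. KGD1 with CTH2 came closest, at a limma adjusted p of 0.0556. That test called 13 of 4537 genes (0.287%) in CTH2 against vector, 0 (0%) in CTH1 against vector and 1 (0.0220%) in CTH2 against CTH1.

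**Figure D1:**
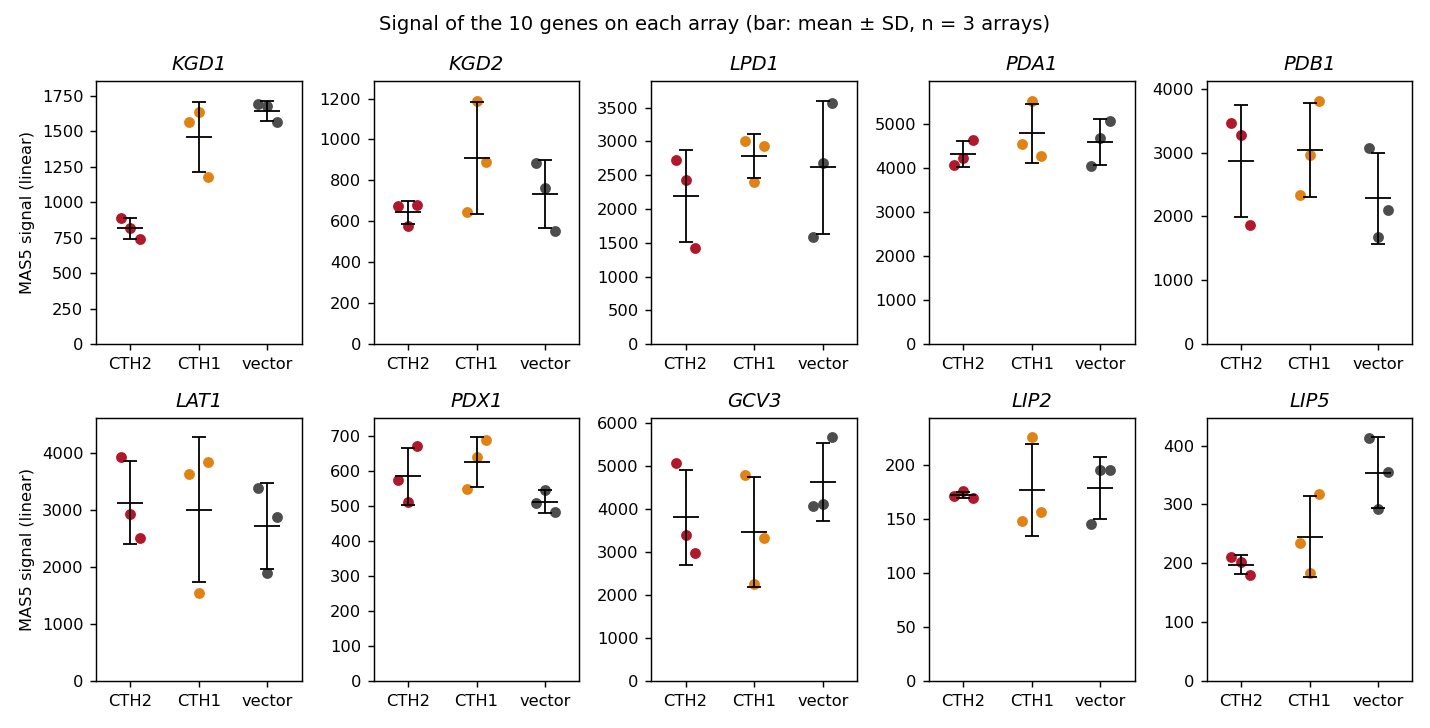
MAS5 signal on a linear scale for each of the 10 genes, with 1 point per array and the mean ± SD of the 3 arrays of the CTH2, CTH1 and vector groups. The KGD1 points of the CTH2 group lie below all points of the other groups, and the LIP5 points of the CTH2 group lie below all vector points.

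Ketoglutarate dehydrogenase is the TCA cycle complex that turns 2-oxoglutarate into succinyl-CoA. KGD1 encodes its first subunit, the thiamine-dependent decarboxylase. KGD1 had signals of 892, 816 and 739 in the CTH2 arrays, 1567, 1638 and 1180 in the CTH1 arrays, and 1691, 1680 and 1563 in the vector arrays. The CTH2 arrays were below all 6 other arrays, a separation seen for 146 of 4537 genes (3.22%). The CTH1 and vector arrays overlapped, with CTH1 replicate 3 the lowest of those 6. On the log2 scale KGD1 averaged 9.67 ± 0.14 in CTH2 arrays, 10.5 ± 0.26 in CTH1 arrays and 10.68 ± 0.063 in vector arrays (SD, n = 3 each).

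The KGD1 difference between CTH2 and vector was -1.02 (SE 0.19, limma adjusted p = 0.0556), and 13 genes had a smaller p. It lay at the 0.551 percentile of the differences of all tested genes. Between CTH2 and CTH1 the difference was -0.83 (SE 0.19, limma adjusted p = 0.253), and between CTH1 and vector -0.18 (SE 0.19, limma adjusted p = 0.859). The vector arrays enter both comparisons against vector, so those values are not independent of each other. The moderated F test over the 3 groups gave KGD1 an adjusted p of 0.107 in limma. The adjusted p of KGD1 in CTH2 against vector lay on either side of 0.05 depending on the setting: 6 of 20 alternatives called it, with adjusted p from 0.0121 to 0.29 over all 20 and differences from -1.11 to -0.95. Leaving out any 1 of the 3 CTH2 or 3 vector arrays gave an uncalled KGD1. Leaving out CTH1 replicate 2 or CTH1 replicate 3, which are not part of this difference, gave limma adjusted p of 0.0356 and 0.0361 for the same difference.

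KGD2 encodes the lipoate-bearing succinyltransferase of the same complex. KGD2 had signals of 675, 578 and 678 in the CTH2 arrays, 648, 1190 and 890 in the CTH1 arrays, and 884, 763 and 553 in the vector arrays. The lowest value of all was a vector array and the highest a CTH1 array. The difference between CTH2 and vector was -0.17 (SE 0.25, 95% interval -0.72 to 0.39, limma adjusted p = 0.876), which does not reach a halving of the signal. Between CTH2 and CTH1 the KGD2 difference was -0.46 (SE 0.25, limma adjusted p = 0.746), and between CTH1 and vector 0.29 (SE 0.25, limma adjusted p = 0.837).

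Because both subunits are read on the same array, their ratio does not depend on a single factor by which that array was scaled. A scaling that varies with signal would not cancel. The log2 ratio of KGD1 to KGD2 was 0.40, 0.50 and 0.12 in the CTH2 arrays, 1.27, 0.46 and 0.41 in the CTH1 arrays, and 0.94, 1.14 and 1.5 in the vector arrays. All CTH2 values were under all vector values, with means of 0.34 ± 0.19 and 1.19 ± 0.29 (SD, n = 3 each) and a difference of -0.85. An exact permutation test, two-sided, gave p = 0.1, and no smaller p can be had from 3 arrays against 3. CTH2 and CTH1 arrays overlapped in this ratio (exact permutation p = 0.4, two-sided). This ratio and that of LIP5 to LIP2 were chosen after the values were seen, and over their 6 comparisons the smallest Benjamini-Hochberg adjusted value of the exact permutation tests was 0.3.

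LPD1 encodes dihydrolipoyl dehydrogenase, the flavoprotein that reoxidises lipoate and is shared by ketoglutarate dehydrogenase, pyruvate dehydrogenase and glycine cleavage. LPD1 had signals of 2720, 2429 and 1422 in the CTH2 arrays, 3005, 2404 and 2930 in the CTH1 arrays, and 1591, 2687 and 3567 in the vector arrays. The vector arrays alone spanned more than the gap between any pair of group means. The difference between CTH2 and vector was -0.23 (SE 0.31, limma adjusted p = 0.843), between CTH1 and vector 0.16 (SE 0.31, limma adjusted p = 0.928), and between CTH2 and CTH1 -0.39 (SE 0.31, limma adjusted p = 0.896). The within-group SD of LPD1 was 0.46 on the log2 scale, at the 81.9 percentile of all tested genes, whose median was 0.30.

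**Figure D2:**
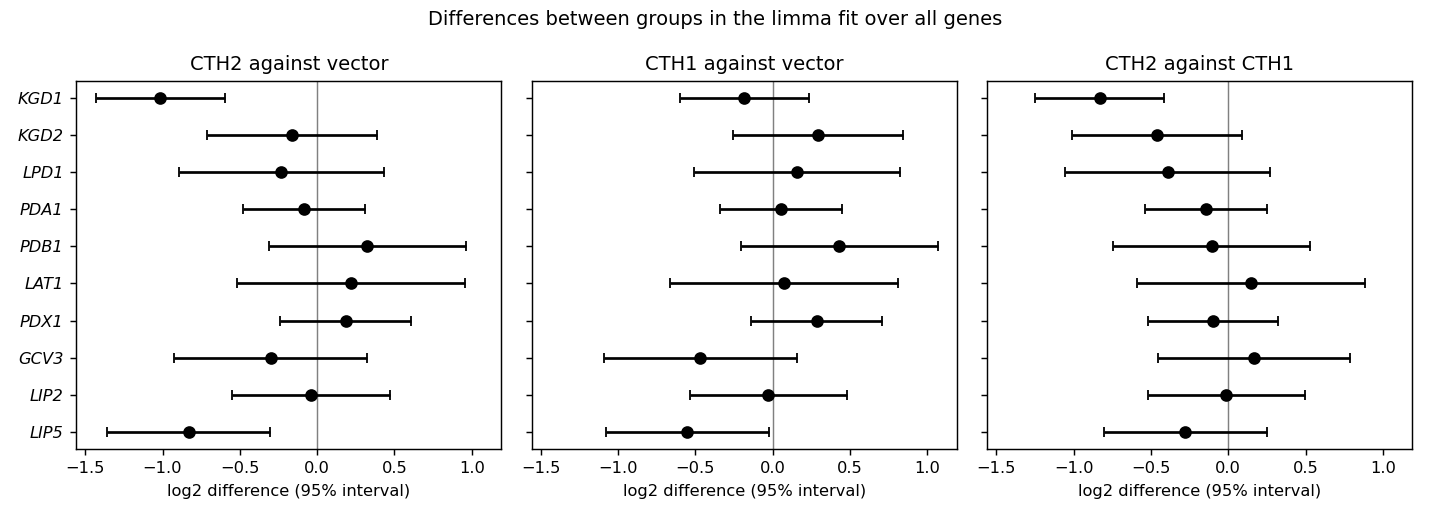
Log2 difference of each gene with its 95% interval from the limma fit over all genes, for CTH2 against vector, CTH1 against vector and CTH2 against CTH1. The KGD1 interval lies below 0 in both comparisons with the CTH2 group, and the LIP5 interval lies below 0 in both comparisons against vector; these intervals are not adjusted for the number of genes.

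Pyruvate dehydrogenase turns pyruvate into acetyl-CoA inside mitochondria, and 4 of the 10 genes encode its own subunits. PDA1 and PDB1 encode the alpha and beta subunits of the decarboxylase, LAT1 the lipoate-bearing acetyltransferase and PDX1 the protein that anchors Lpd1 to the core. None of the 4 had an adjusted p below 0.772 in any comparison. PDA1 varied least. PDA1 had signals of 4078, 4217 and 4638 in the CTH2 arrays, 4551, 5531 and 4269 in the CTH1 arrays, and 4036, 4680 and 5062 in the vector arrays.

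The highest PDA1 signal was 1.37 times the lowest over the 9 arrays, against a median of 1.98 over all tested genes, which put PDA1 at the 3.28 percentile. Its difference between CTH2 and vector was -0.087 (SE 0.18, 95% interval -0.48 to 0.31, limma adjusted p = 0.924), so a level in the CTH2 arrays below 71.6% or above 123.8% of that in vector arrays is outside the interval. Between CTH1 and vector PDA1 differed by 0.056 (95% interval -0.34 to 0.45, limma adjusted p = 0.958).

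PDX1 was also steady within groups, with an SD of 0.16 on the log2 scale. PDX1 had signals of 574, 511 and 673 in the CTH2 arrays, 549, 640 and 689 in the CTH1 arrays, and 509, 547 and 482 in the vector arrays. The CTH1 arrays lay above the vector arrays, by a narrow margin, while CTH2 and vector overlapped. The PDX1 difference between CTH1 and vector was 0.28 (SE 0.20, limma adjusted p = 0.812), that between CTH2 and vector 0.19 (SE 0.20, limma adjusted p = 0.796). Separation of the arrays in either direction between CTH1 and vector held for 10.2% of all tested genes, and for 1 of the 10 genes.

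PDB1 and LAT1 spread widely inside every group. PDB1 had signals of 3465, 3279 and 1869 in the CTH2 arrays, 2341, 2967 and 3814 in the CTH1 arrays, and 3070, 1679 and 2101 in the vector arrays. LAT1 had signals of 3937, 2940 and 2518 in the CTH2 arrays, 3628, 1537 and 3849 in the CTH1 arrays, and 3386, 1893 and 2883 in the vector arrays. Vector replicate 2 was the lowest vector array for both genes and CTH2 replicate 3 the lowest CTH2 array for both, whereas the lowest CTH1 array was replicate 1 for PDB1 and replicate 2 for LAT1. The within-group SD was 0.43 for PDB1 and 0.53 for LAT1 on the log2 scale, the second at the 89.2 percentile of all tested genes.

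Differences for this pair were positive against vector and small beside their error. PDB1 differed by 0.32 (SE 0.29, limma adjusted p = 0.772) between CTH2 and vector and by 0.43 (SE 0.29, limma adjusted p = 0.812) between CTH1 and vector. LAT1 differed by 0.22 (SE 0.34, 95% interval -0.52 to 0.96) between CTH2 and vector, with a limma adjusted p of 0.878. With this spread the interval for LAT1 reached from 69.7% to 194.3% of the vector level. Between CTH2 and CTH1 the 4 subunit genes had limma adjusted p of at least 0.943.

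Glycine cleavage breaks glycine down to carbon dioxide, ammonia and a one-carbon unit, and GCV3 encodes its lipoate carrier, the H protein. GCV3 had signals of 5058, 3386 and 2964 in the CTH2 arrays, 4792, 2251 and 3328 in the CTH1 arrays, and 4072, 4116 and 5661 in the vector arrays. In the CTH2 group and in the CTH1 group, 2 of 3 arrays were below all vector arrays and the third was not. The difference was -0.30 (SE 0.29, limma adjusted p = 0.778) between CTH2 and vector and -0.47 (SE 0.29, 95% interval -1.09 to 0.15, limma adjusted p = 0.801) between CTH1 and vector. With a coding length of 513 nucleotides GCV3 is the shortest of the 10 genes, and short mRNAs were low on CTH1 replicate 3: genes of at most 400 nucleotides, set against those above 900, had a median deviation of -0.68 on that array and of -0.075 to 0.21 on the others. GCV3 itself, at 513 nucleotides, is outside the class of at most 400. After the dependence on coding length was removed, the GCV3 difference between CTH1 and vector was -0.37. Without that correction and with single arrays left out, the difference ran from -0.74 to -0.19. It was -0.47 without CTH1 replicate 3 and -0.19 without CTH1 replicate 2, whose signal of 2251 was the lowest of all.

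LIP5 had signals of 210, 203 and 179 in the CTH2 arrays, 234, 183 and 318 in the CTH1 arrays, and 413, 293 and 355 in the vector arrays. The 3 CTH2 arrays were close together and all below the vector arrays, and CTH1 arrays ranged from the CTH2 level to the vector level. On the log2 scale LIP5 averaged 7.62 ± 0.12 in CTH2 arrays, 7.90 ± 0.40 in CTH1 arrays and 8.45 ± 0.25 in vector arrays (SD, n = 3 each). The difference between CTH2 and vector was -0.83 (SE 0.24, limma adjusted p = 0.214), at the 1.46 percentile of all tested genes. No alternative called LIP5, with adjusted p from 0.0636 to 0.587 and differences from -0.96 to -0.71 over 20 of them.

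With CTH1, LIP5 stood at 68.2% of its vector level (95% interval 47.3% to 98.4%), a difference of -0.55 (SE 0.24, limma adjusted p = 0.715). CTH1 replicate 3, at 318, was above vector replicate 2, at 293. Without CTH1 replicate 2 the LIP5 difference between CTH1 and vector was -0.36, and over all single arrays left out it ran from -0.76 to -0.36. The difference between CTH2 and CTH1 was -0.28 (SE 0.24, 95% interval -0.81 to 0.25, limma adjusted p = 0.904), so the data do not separate the LIP5 levels of these groups.

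LIP2, the octanoyl transferase gene, had signals around the array medians of 153 to 184, and its group means nearly coincided. LIP2 had signals of 171, 175 and 169 in the CTH2 arrays, 148, 225 and 156 in the CTH1 arrays, and 145, 195 and 196 in the vector arrays. The CTH2 arrays lay inside the range of both other groups. The difference between CTH2 and vector was -0.040 (SE 0.23, 95% interval -0.55 to 0.47, limma adjusted p = 0.989) and that between CTH1 and vector -0.028 (SE 0.23, limma adjusted p = 0.986). The log2 ratio of LIP5 to LIP2 was 0.29, 0.21 and 0.085 in the CTH2 arrays, 0.66, -0.30 and 1.03 in the CTH1 arrays, and 1.51, 0.59 and 0.86 in the vector arrays. In this ratio every CTH2 array was under every vector array, with a difference of -0.79 between the means (exact permutation p = 0.1, two-sided, again the smallest attainable), and CTH1 overlapped both groups.

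**Figure D3:**
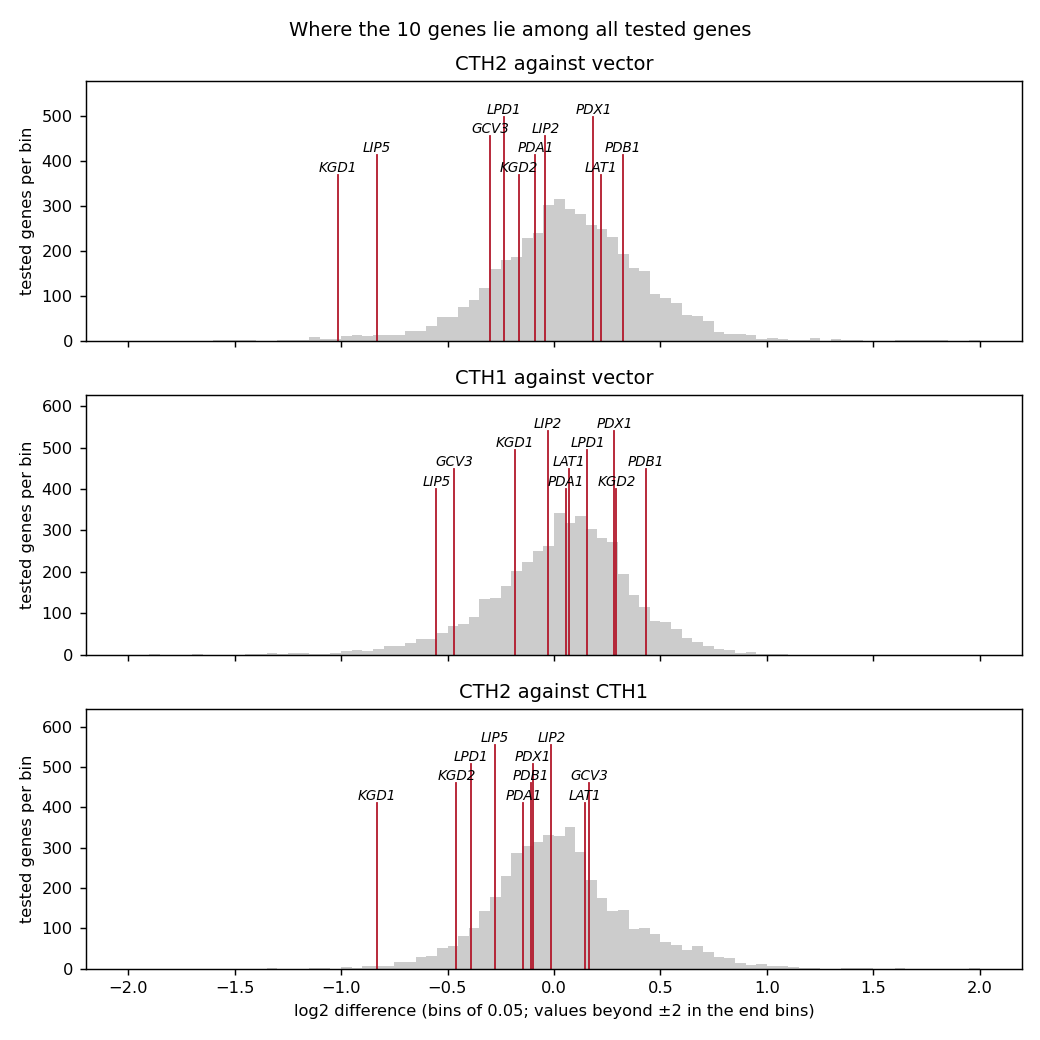
Histograms of the log2 difference of all 4537 tested genes for each comparison, in grey, with a red line at each of the 10 genes; line height carries no value. In CTH2 against vector KGD1 (-1.02) and LIP5 (-0.83) lie in the lower tail and the other 8 genes lie between -0.30 and 0.32.

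Counted together, 2 of the 10 genes reached an unadjusted p under 0.05 between CTH2 and vector, KGD1 and LIP5, beside 424 of all 4537 genes (9.35%), of which 195 were lower (4.30%). The same 2 were the only ones whose CTH2 and vector arrays did not overlap, beside 16.5% of all genes in either direction and 6.99% with CTH2 lower. The median difference of the 10 genes was -0.13, beside 0.066 over all tested genes, and 7 of 10 were below 0, beside 40.9% of all genes. The other 8 genes ran from -0.30 to 0.32 with a median of -0.064, inside the range of -0.50 to 0.62 between the 5th and 95th percentiles of all tested genes.

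Between CTH1 and vector the median of the 10 genes was 0.064, beside 0.058 over all genes, and 4 of 10 were below 0, beside 41.3% of all genes. LIP5 alone had an unadjusted p under 0.05, beside 6.90% of all genes (3.04% with CTH1 lower). Between CTH2 and CTH1 the median was -0.12, beside 0.010 over all genes, and 8 of 10 were below 0, beside 48.5% of all genes. KGD1 alone had an unadjusted p under 0.05 there, beside 7.47% of all genes (3.55% with CTH2 lower), and was alone in having CTH2 and CTH1 arrays that did not overlap, beside 13.4% (7.19% with CTH2 lower). In the F test over the 3 groups, which called 1 gene in all (0.0220%), KGD1 and LIP5 had an unadjusted p under 0.05, beside 8.46% of all genes.

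Ribosomal RNA signals differed along with the CTH2 group. Summed over 5 probe sets, 25S rRNA gave 2063 ± 486 in CTH2 arrays, 6091 ± 4176 in CTH1 arrays and 5931 ± 1382 in vector arrays (SD, n = 3 each), and each CTH2 array was below all others. The 18S rRNA sum was 635 ± 101 in CTH2 arrays, 2499 ± 1405 in CTH1 arrays and 1294 ± 391 in vector arrays, with the same separation. Each gave p = 0.1 for CTH2 against vector in an exact permutation test, two-sided. RNA integrity, read as ACT1 signal at the 3′ end over that at the 5′ end, was 1.33 ± 0.11 in CTH2 arrays and 1.35 ± 0.26 in vector arrays (exact permutation p = 0.9, two-sided), with 1.16 ± 0.22 in CTH1 arrays (SD, n = 3 each). The same ratio for SPT15 was 2.35 ± 0.69 in CTH2 arrays, 3.22 ± 0.22 in CTH1 arrays and 2.53 ± 1.92 in vector arrays. The SPT15 ratios of the CTH2 arrays, 1.563 to 2.798, lay below those of the CTH1 arrays, 2.997 to 3.432 (exact permutation p = 0.1, two-sided), and inside those of the vector arrays, 1.041 to 4.695. The part of the rRNA signal and of the 3′ to 5′ ratios in the KGD1 and LIP5 values was not tested.

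The wider pathway was read through 5 lists with 40 genes, likewise drawn up with earlier results known, of which 34 were tested, 5 (LIP3, CEM1, OAR1, IBA57 and PDC6) were too dim and BOL1 had no probe set of its own. None of the 34 was called in any comparison, beside the 0.287%, 0% and 0.0220% of all genes given above. The list nearest to LIP5 in function holds proteins that mature or deliver iron-sulfur clusters inside mitochondria to enzymes such as lipoyl synthase. NFU1, GRX5, BOL3 and ISA1, 4 of its 5 tested genes, had CTH2 arrays wholly below the vector arrays, beside 6.99% of all genes. The same 4 had an unadjusted p under 0.05, beside 9.35% of all genes (4.30% with CTH2 lower). The median difference of the list was -0.88 between CTH2 and vector, beside 0.066 over all genes.

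NFU1 encodes a cluster carrier. NFU1 had signals of 227, 225 and 116 in the CTH2 arrays, 185, 243 and 246 in the CTH1 arrays, and 273, 513 and 459 in the vector arrays. CTH2 and CTH1 arrays all lay below the vector arrays, and they overlapped each other. The NFU1 difference between CTH2 and vector was -1.15 (SE 0.31, limma adjusted p = 0.186), that between CTH1 and vector -0.85 (SE 0.31, limma adjusted p = 0.657). With single arrays left out, the first ran from -1.42 to -0.83 and the second from -1.12 to -0.67. CTH2 replicate 3, at 116, was the lowest array.

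BOL3 encodes a mitochondrial BolA-like protein that acts late in cluster delivery. BOL3 had signals of 343, 312 and 270 in the CTH2 arrays, 443, 172 and 236 in the CTH1 arrays, and 596, 485 and 1048 in the vector arrays. Again CTH2 and CTH1 arrays were all below vector arrays, with a difference of -1.13 for CTH2 (SE 0.35, limma adjusted p = 0.246) and of -1.36 for CTH1 (SE 0.35, limma adjusted p = 0.606). BOL3 is short, at 357 nucleotides, and with coding length corrected its differences were -1.05 with CTH2 and -1.13 with CTH1. Without vector replicate 3, the highest array at 1048, the uncorrected differences were -0.81 with CTH2 and -1.04 with CTH1.

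GRX5 encodes the mitochondrial monothiol glutaredoxin that passes clusters on from the scaffold. GRX5 had signals of 631, 578 and 294 in the CTH2 arrays, 772, 496 and 734 in the CTH1 arrays, and 1029, 785 and 831 in the vector arrays, a difference of -0.88 between CTH2 and vector (SE 0.29, limma adjusted p = 0.319). ISA1, needed for clusters of the kind found in lipoyl synthase and aconitase, had signals of 336, 303 and 384 in the CTH2 arrays, 478, 384 and 471 in the CTH1 arrays, and 560, 584 and 475 in the vector arrays, a difference of -0.66 between CTH2 and vector (SE 0.20, limma adjusted p = 0.229). For both genes CTH2 lay below vector on every array. Without CTH2 replicate 3 the GRX5 difference was -0.54.

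ISA2, the partner of ISA1, differed by 0.34 between CTH2 and vector (limma adjusted p = 0.822). ISA1 and GRX5 had smaller differences between CTH1 and vector, -0.28 and -0.42, and the GRX5 value became -0.28 with coding length corrected. Without CTH1 replicate 2 these differences were -0.18 for ISA1 and -0.22 for GRX5. Between CTH1 and vector 3 of the 5 genes, NFU1, BOL3 and GRX5, had arrays wholly lower, beside 3.35% of all genes, and the list median was -0.42. For GRX5 the margin was narrow, with 772 in CTH1 replicate 1 and 785 in vector replicate 2. Of the 5 genes, none had an unadjusted p under 0.05 between CTH2 and CTH1, beside 7.47% of all genes, and the median was -0.30. ISA1 alone had CTH2 arrays wholly below the CTH1 arrays, beside 7.19% of all genes. Its margin was 383.7 in CTH2 replicate 3 against 384.2 in CTH1 replicate 2.

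**Figure D4:**
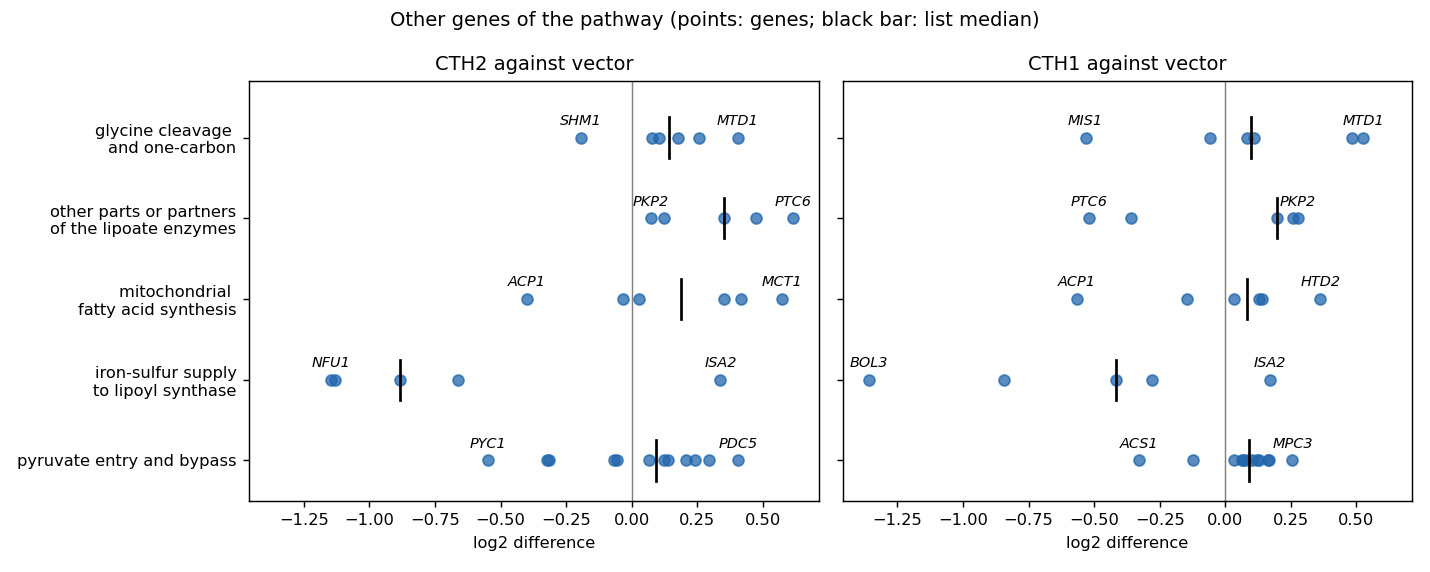
Log2 differences of the tested genes of 5 lists around lipoate, CTH2 against vector on the left and CTH1 against vector on the right, with a black bar at each list's median and the lowest and highest gene named. The iron-sulfur supply list has medians of -0.88 and -0.42, and the other 4 lists have medians between 0.082 and 0.35.

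The other lists lay on the other side of 0 or near it. Subunit and regulator genes of the lipoate enzymes had a median of 0.35 between CTH2 and vector, beside 0.066 over all genes. All 5 tested members were above 0, where 40.9% of all genes were below 0, and PTC6 was the highest at 0.61. PTC6 and PTC5 encode mitochondrial phosphatases that reactivate pyruvate dehydrogenase by taking a phosphate off Pda1, and PKP1 and PKP2 encode the opposing kinases. PTC6 had signals of 461, 494 and 450 in the CTH2 arrays, 154, 192 and 328 in the CTH1 arrays, and 366, 298 and 261 in the vector arrays.

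The CTH2 arrays were the highest for PTC6 in every pairing, with a difference of 1.13 between CTH2 and CTH1 (SE 0.27, limma adjusted p = 0.253) and of 0.61 between CTH2 and vector (SE 0.27, limma adjusted p = 0.507). With array weights the first of these was called (1.36, limma adjusted p = 0.0187), and no other alternative called it. PKP2 was the lowest of the list at 0.074 between CTH2 and vector and at -0.20 between CTH2 and CTH1, and between CTH1 and vector it was the highest at 0.28 and PTC6 the lowest at -0.52. KGD4, a small subunit of ketoglutarate dehydrogenase, was 0.35 higher in CTH2 than in vector arrays by its group means with no overlap (SE 0.20, limma adjusted p = 0.610), on the other side of 0 from KGD1.

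Glycine cleavage and one-carbon genes had a median of 0.14 between CTH2 and vector, beside 0.066 over all genes. They ran from SHM1, a mitochondrial serine hydroxymethyltransferase (-0.19), to MTD1, a cytosolic methylenetetrahydrofolate dehydrogenase (0.40). MTD1 was also the highest between CTH1 and vector (0.53). GCV1, the aminomethyltransferase of glycine cleavage, had CTH1 arrays wholly above vector arrays (0.48, SE 0.20, limma adjusted p = 0.712), while its lipoate carrier GCV3 had a mean below that of vector. MIS1, the mitochondrial one-carbon enzyme, was at -0.53 between CTH1 and vector and at 0.79 between CTH2 and CTH1, and its arrays overlapped in each pairing.

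Mitochondrial fatty acid synthesis, the source of the octanoyl chain, had a median of 0.19 between CTH2 and vector, beside 0.066 over all genes. ACP1, the acyl carrier protein, was the lowest in both comparisons against vector, at -0.40 with CTH2 (SE 0.26, limma adjusted p = 0.665) and -0.57 with CTH1 (SE 0.26, limma adjusted p = 0.715), and in each the arrays did not overlap those of vector. ACP1 is 378 nucleotides long, and with coding length corrected its difference between CTH1 and vector was -0.37. Its signals in the CTH1 arrays were 1864, 1833 and 947, with replicate 3 the lowest. Over the alternatives the ACP1 difference between CTH1 and vector ran from -0.73 to -0.24. MCT1, the malonyl transferase, was the highest with CTH2 at 0.57, and HTD2, the dehydratase, with CTH1 at 0.36.

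Pyruvate entry and bypass genes had a median of 0.094 between CTH2 and vector, beside 0.066 over all genes. PYC1, a cytosolic pyruvate carboxylase, was the lowest at -0.55 (SE 0.24, limma adjusted p = 0.511), with signals of 720, 990 and 977 in the CTH2 arrays, 948, 1768 and 1534 in the CTH1 arrays, and 1358, 1210 and 1324 in the vector arrays. PDC5, a pyruvate decarboxylase, was the highest at 0.41. Between CTH1 and vector this list ran from ACS1, an acetyl-CoA synthetase, at -0.33 to MPC3, a subunit of the mitochondrial pyruvate carrier, at 0.26. Between CTH2 and CTH1 the list ran from PYC1 at -0.63 (SE 0.24, limma adjusted p = 0.568) to PDC5 at 0.30. PYC1 had an unadjusted p under 0.05 there, beside 7.47% of all genes, and its arrays overlapped.

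**Figure D5:**
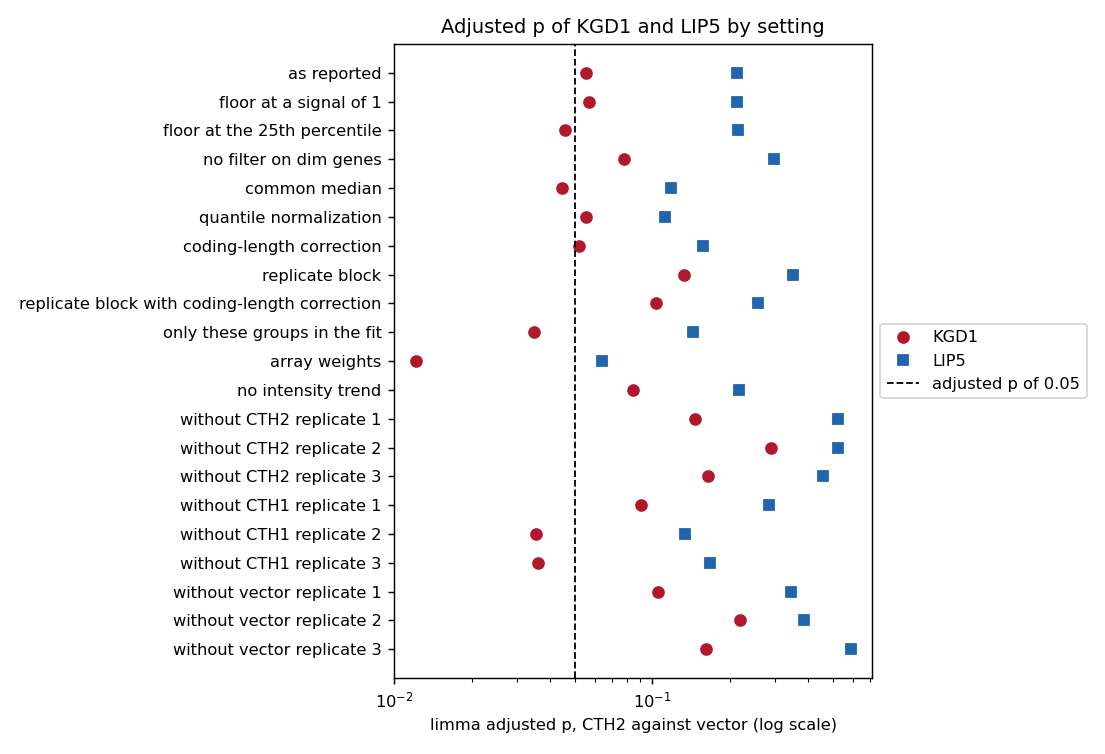
Limma adjusted p on a log axis for KGD1 and LIP5 in CTH2 against vector, as reported and under each of 20 alternatives, with a dashed line at 0.05. KGD1 lies between 0.0121 and 0.29, left of the line in 6 alternatives, and LIP5 lies between 0.0636 and 0.587, right of the line in all 20.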

How the data were processed

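The deposited table holds a linear MAS5 intensity for each probe set on each array; the submitters' processing notes name MAS5, with no version given in the labels. After 2% of probe sets were trimmed from either end, every array averaged 500.4 to 500.6, so the authors had scaled the arrays before they deposited them. Arrays carry no read depth, and their number limits the precision.

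Of 9335 probe sets, 6504 had 1 gene in the platform annotation, and all 6504 matched RefSeq (assembly R64) by gene number; 328 had several genes. RefSeq gave names and coding lengths only. Signals were floored at the 10th percentile (43.2) and log2-transformed, the probe set with the highest mean was kept per gene, and genes whose mean exceeded the 25th percentile (98.4) were tested with limma 3.58.1 in R 4.3.3 (lmFit, eBayes with an intensity trend, all 9 arrays, no covariate). Adjusted p are Benjamini-Hochberg over all 4537 genes, and a call needs 0.05. The fit was also run on simulated data with independent normal values for each gene and array. That setting has no effects shared between genes on an array, so it cannot show how the fit behaves with them. Single values had a two-sided exact permutation test.

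The members and lists were chosen with earlier results of these data known. Named were all 10 members, CTH1 and CTH2, and the lowest and highest gene of each pathway list in both comparisons against vector. For CTH2 against CTH1 the lowest and highest gene were not given for every list. The genes most like each member were ranked, and the top 3 are named for KGD1 and LIP5 and only the first for GCV3 and LIP2. The other pathway genes given by name were chosen after their values were seen. Alternatives changed the floor, filter, scaling, coding-length dependence, replicate block, groups fitted, array weights and variance trend, and left out each array; no member had another probe set. The labels do not say that replicate numbers pair the samples, so the main fit had no block. Deviations of same-numbered arrays from their group means correlated between -0.578 and 0.21. With 3 arrays per group these values cannot show whether a number marks a shared day or batch.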

Additional observations from a re-analysis of the deposited data

How the results depend on the processing

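Of 600 member differences recomputed over 20 alternatives, 564 kept their direction and their side of the threshold, 7 passed it and 29 changed sign, none of them a called value. The 7 were all KGD1. In CTH2 against vector the count of called genes among the 10 was 1 in place of 0 with a floor at the 25th percentile, with a common median, with only these groups in the fit, with array weights and without CTH1 replicate 2 or 3, and ranged from 0 to 1 over the arrays left out singly. It was also 1 with array weights in CTH2 against CTH1 and in the F test over 3 groups. The cause was not tested. The calls over all genes in CTH2 against vector ranged from 1 to 72 around 13, those in CTH2 against CTH1 from 1 to 26 around 1, those in CTH1 against vector from 0 to 1 around 0, and those of the F test from 1 to 66 around 1, with the highest counts under array weights except in CTH1 against vector. With the replicate block KGD1 kept its difference of -1.02 in CTH2 against vector with an adjusted p of 0.133, none of the 10 was called, and calls over all genes in that comparison were 1. In deviations from the group means, each array was correlated with the arrays of the other groups. For none was the best partner an array of its own number (0 of 9).

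Values that changed sign were all small. In CTH2 against CTH1 array weights gave GCV3 -0.099, LAT1 -0.075, LIP2 0.15 and PDB1 0.23. In CTH1 against vector PDA1 was -0.0012 with a common median and -0.0057 with array weights. With single arrays left out, CTH2 against vector ranged from -0.022 to 0.40 for LAT1, from -0.18 to 0.033 for LIP2 and from -0.55 to 0.052 for LPD1. CTH1 against vector ranged from -0.17 to 0.50 for LAT1, from -0.22 to 0.085 for LIP2, from -0.16 to 0.42 for LPD1 and from -0.053 to 0.13 for PDA1. CTH2 against CTH1 ranged from -0.11 to 0.44 for GCV3, from -0.28 to 0.38 for LAT1, from -0.13 to 0.18 for LIP2 and from -0.28 to 0.18 for PDB1. The added alternatives for NFU1, GRX5, BOL3 and ISA1 were chosen after seeing the data, and none called these genes or turned their differences against vector. Between CTH2 and CTH1, 2 alternatives turned NFU1 (-0.46 to 0.045) and 2 turned BOL3 (-0.14 to 0.61). LIP2, at 145 to 225, was above the filter at 98.4 on every array, and none of its values was at the floor of 43.2.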

Other observations

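The tested genes whose log2 signal over the 9 arrays was most like that of KGD1 were SOD2 (Pearson r = 0.949), the mitochondrial manganese superoxide dismutase, NAF1 (0.942), which helps to assemble small nucleolar RNPs, and ATG41 (0.935), which acts in autophagy. For LIP5 they were ILV3 (0.914), the iron-sulfur dehydratase of branched-chain amino acid synthesis, CIR2 (0.913), a putative electron transfer flavoprotein oxidoreductase, and CYT1 (0.912), the cytochrome subunit of complex bc1. Spearman rho was 0.75 to 0.82 for the genes most like KGD1 and 0.90 to 0.95 for those most like LIP5. The top Pearson r of the other members ran from 0.899 (LIP2 with MIL1) to 0.967 (GCV3 with NOP58). Values this high were therefore not particular to KGD1 and LIP5. All these genes are the top of a ranking of all tested genes, the arrays share group differences and scaling, and the values describe these 9 arrays only. Among the 10 genes themselves KGD1 and LIP5 had a Pearson r of 0.586, and the values over all pairs ran from -0.825 for LAT1 with LIP2 to 0.797 for PDA1 with LIP2.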
